A study of Mus musculus with 6 samples.

Results

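The genes described here encode the degradative enzymes of the lysosome, the membrane proteins of its boundary, the V-ATPase that acidifies it, and TFEB and TFE3, transcription factors that act on such genes. The list held 37 gene symbols, chosen by name and function with the cathepsins left out, and all 37 were found among the 21515 genes of the deposited table. By role they were 15 hydrolases, 2 soluble helpers of lipid breakdown and export, 6 membrane proteins, 12 V-ATPase genes and 2 transcription factors. RNA was sequenced from mouse bone marrow cells of C57BL/6 origin that carried NRASG12D and the leukaemia fusion NUP98-NSD1, by which they were immortalised. The 3 Clec12a knockout libraries (replicates 1, 4 and 5) carried Cas9 and the T44 guide against Clec12a from a lentivirus marked with dTomato, and the 3 control libraries (replicates 6, 8 and 9) carried the same vector with a guide against the bacterial gene lacZ. Both groups were expanded from singly sorted cells and shared the oncogenes, the vector and the medium, in which they spent 48 hours with 15% serum and 3 cytokines (10 ng/mL of human IL-6, 6 ng/mL of mouse IL-3 and 20 ng/mL of mouse SCF). A single guide was used for the knockout, and the libraries within a group may differ by the cell each was grown from. The question was how loss of Clec12a, a myeloid surface lectin that dampens activation, alters expression.

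Lysosomes break down proteins, lipids, glycans and glycogen with hydrolases that work at acid pH. The V-ATPase pumps protons across the lysosomal membrane: its cytosolic V1 sector burns ATP and turns a rotor, and its membrane-embedded V0 sector carries the protons. TFEB and TFE3, basic helix-loop-helix proteins held in the cytoplasm while mTORC1 is active, bind a short palindromic element (the CLEAR element, with the core CACGTG) in the promoters of many lysosomal genes. Macrophages and maturing granulocytes are rich in lysosomal and granule enzymes.

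The promoters are shown first, because some of them carry the sequence by which TFEB and TFE3 are known to recognise lysosomal genes. RefSeq windows (GRCm38.p6, 250 bases before to 50 after each annotated start) covered 32 of the 37 genes in 39 windows, without Asah1, Atp6v1b2, Atp6v1c1, Atp6v1h and Npc1. The letters TCACGTG, read on either strand, were in the windows of 11 of the 32 genes (34.4%). Among tested genes with a window the share was 7.53%, and among all 27025 genes with a window it was 4.29%. The longer palindrome TCACGTGA, which contains TCACGTG on each strand, was in 6 of the 32 (18.8%, against 2.44% of tested genes). The related letters TCATGTGA were in 4 (12.5%, against 0.935%), those of Atp6v0c, Gla, Ppt1 and Tpp1. The stretches below belong to Lamp1, which had the most separate sites (4 within one window), and to the 6 genes with TCACGTGA. A TCACGTGA was counted as a single site, although it matches on each strand. Capitals mark TCACGTG on either strand, and each stretch is printed 5′ to 3′ on the strand of its gene.
Lamp1, chr8:13159084-13159166, plus strand: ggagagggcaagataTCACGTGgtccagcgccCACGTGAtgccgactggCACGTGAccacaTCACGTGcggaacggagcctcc
Mcoln1, chr8:3500432-3500495, plus strand: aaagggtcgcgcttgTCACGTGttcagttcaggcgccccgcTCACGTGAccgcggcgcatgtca
Gla, chrX:134601178-134601248, minus strand: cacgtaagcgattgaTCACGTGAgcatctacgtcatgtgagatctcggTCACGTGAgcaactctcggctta
Cln3, chr7:126583336-126583400, minus strand: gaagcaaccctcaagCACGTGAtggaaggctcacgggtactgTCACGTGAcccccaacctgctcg
Atp6v0e, chr17:26676383-26676420, plus strand: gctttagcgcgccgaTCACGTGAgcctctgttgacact
Atp6v0d1, chr8:105566046-105566083, minus strand: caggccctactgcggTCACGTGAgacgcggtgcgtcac
Atp6v1a, chr16:44139369-44139406, minus strand: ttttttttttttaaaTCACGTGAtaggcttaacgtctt

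Each window held a match by letters only, and binding was not measured. The element is known from promoters of lysosomal genes, so its higher share in a list of such genes is no separate result. The shares describe the reference sequence, not these cells. The other 4 genes with TCACGTG were Gaa, Glb1, Naglu and Sgsh. In Lamp1 the 4 sites began between 62 and 16 bases before the start, while in Gla both sites lay farther out, from 228 bases before the start.

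Expression was given as FPKM, a fragment number scaled to transcript length and to the fragments mapped in the library, with 1 value per gene and library. FPKM totals ran from 590211 to 699113 in knockout and from 534440 to 554534 in control libraries, and the estimated depth was lowest in knockout replicate 5 and highest in control replicate 6. Clec12a itself was at 170, 129 and 94.5 FPKM in the knockout group and at 157, 246 and 280 FPKM in the lacZ group, so the groups overlapped (limma, adjusted p = 0.130). The RNA level alone does not show whether the gene was edited. Myeloid identity genes were present: Spi1, the transcription factor PU.1, ran from 191 to 265 FPKM and Itgam from 20.5 to 76.8 FPKM, while Cd34 stayed at or under 0.127 FPKM. Granulocyte genes went in different directions, and Ly6g was the 1 gene called of 13 tested on the myeloid list. Ly6g, a neutrophil surface marker, rose (118, 74.0 and 33.3 FPKM against 1.92, 6.48 and 8.05 FPKM, adjusted p = 0.0215). Mpo, the primary granule peroxidase, was at 0.289, 1.20 and 9.36 FPKM against 455, 737 and 10.2 FPKM (adjusted p = 0.0763). For Mpo, control replicate 9 was close to knockout replicate 5. The groups overlapped for Elane, Prtn3, Cebpe and Csf3r (log2 fold changes 0.89, 0.24, 1.28 and -0.72), and none of these was called. The part of these genes in the lysosomal values was not tested. Summed markers of T and NK cells reached at most 2.95 FPKM and those of B cells at most 0.352 FPKM in any library, and those of mast cells and basophils at most 12.7 FPKM. Of the last, nearly all came from Mcpt8, a basophil protease gene, at 1.91 to 12.0 FPKM, while Cpa3, Fcer1a, Tpsb2 and Cma1 were listed at 0 in all 6 libraries. In the summed stromal and endothelial markers (48.7 to 106 FPKM) nearly all came from Pecam1.

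No lysosomal gene of the list passed the test between knockout and control cells. All 37 passed the filter on low values (1 FPKM or more in 3 or more libraries) and were tested with limma on log2(FPKM + 1), adjusted over 9830 genes. None of the 37 was called higher at an adjusted p under 0.05, against 1.38% of all tested genes, and none was called lower, against 0.519% (1.9% either way). Over all genes 136 rose and 51 fell, and with libraries scaled to equal totals 71 rose and 49 fell. The lowest adjusted p among the 37 was 0.0951, for Tfeb. At an unadjusted p under 0.05, 3 were higher (8.11%, against 12.0% of all tested genes) and 3 lower (8.11%, against 15.9%). The groups did not overlap with the knockout higher for 5 genes (13.5%, against 14.5%) and with the knockout lower for 4 (10.8%, against 21.8%). The median log2 fold change of the 37 was -0.13, where that of all tested genes was -0.06, with 13 genes higher and 24 lower; with equal totals these medians were -0.33 and -0.24. A missed threshold leaves room for a difference. On the log2(FPKM + 1) scale the 95% interval lay within 2-fold either way for 24 of the 37 genes (64.9%, against 55.4% of all tested genes). This scale understates the fold changes of low genes such as Sgsh, so their intervals in FPKM are wider. The 13 whose intervals reached past 2-fold were Asah1, Atp6ap1, Atp6ap2, Atp6v0a1, Atp6v1b2, Lamp1, Lamp2, Lipa, Man2b1, Psap, Scarb2, Tfeb and Tpp1.

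**Figure D1:**
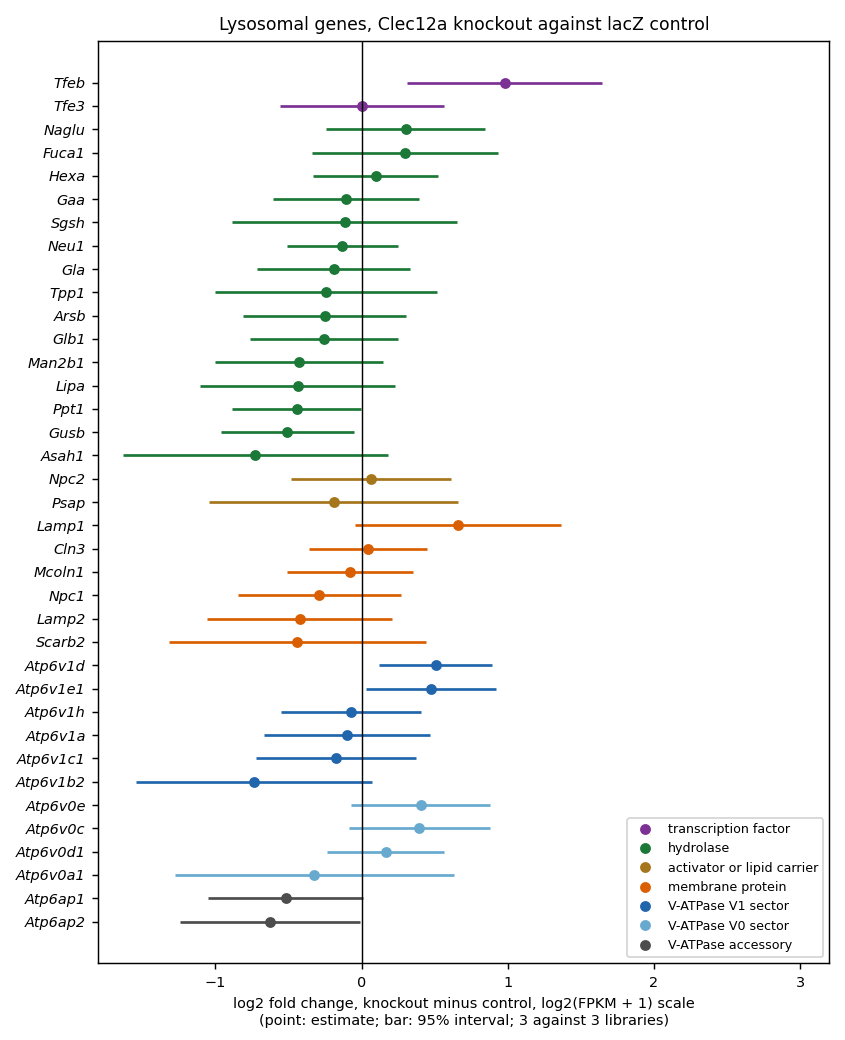
Log2 fold change (horizontal axis, knockout minus control on the log2(FPKM + 1) scale) of the 37 genes, grouped by role; points are limma estimates and bars 95% intervals from 3 against 3 libraries. The estimates run from -0.74 for Atp6v1b2 to 0.98 for Tfeb, and the intervals of most genes cross 0.

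Neither transcription factor passed the test, and the difference between them was not tested. Tfeb (chromosome 17, 47737030 to 47792419, GRCm38) was at 4.42, 6.02 and 2.62 FPKM in knockout replicates 1, 4 and 5 and at 1.53, 1.14 and 2.35 FPKM in control replicates 6, 8 and 9. Every knockout library was above every control, though knockout replicate 5 was close to control replicate 9. The means were 4.36 ± 1.70 and 1.67 ± 0.617 FPKM (SD, n = 3 each), and the log2 fold change of 0.98 (SE 0.29, 95% interval 0.31 to 1.65) did not pass over all genes (adjusted p = 0.0951). A two-sided exact permutation test returned p = 0.1, the smallest that 3 against 3 libraries allow. Tfeb was the second lowest of the 37 genes in level, above the level of 13.7% of tested genes. Its difference was smaller without knockout replicate 4 (log2 fold change 0.76, adjusted p = 0.200). It was also smaller with each library adjusted for the length and GC content of transcripts (0.70, adjusted p = 0.0951). Larger estimates came without knockout replicate 5 (1.23, adjusted p = 0.0646) and without control replicate 9 (1.15, adjusted p = 0.0877). With a pseudocount of 0.1 the estimate was 1.31 (adjusted p = 0.103). None of these passed.

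Tfe3, the related factor encoded on the X chromosome, was at 13.5, 9.38 and 14.5 FPKM in the knockout group and at 12.5, 9.79 and 14.9 FPKM in the lacZ group. The groups covered nearly the same range (means 12.5 ± 2.71 and 12.4 ± 2.56 FPKM), and the 95% interval of the log2 difference ran from -0.56 to 0.57. A two-sided exact permutation test returned p = 1.0. The other members of this factor family were added by name rather than by the rule for naming genes. Mitf was at 2.61 to 4.23 FPKM in the knockout group and at 2.93 to 5.08 FPKM in the lacZ group. Tfec was the most abundant of the 4, at 57.1, 67.5 and 78.0 FPKM in the knockout group and at 113, 103 and 70.0 FPKM in the lacZ group (log2 fold change -0.48, adjusted p = 0.210), with knockout replicate 5 above control replicate 9.

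Among the 15 hydrolases, none passed, 12 estimates were lower and 3 higher (of which Hexa was lower with equal totals or quantile normalization), and the median log2 fold change was -0.24. Without knockout replicate 4, 9 were lower and 6 higher, with a median of -0.11. The lowest p belonged to Gusb, the beta-glucuronidase gene (chromosome 5, 129989011 to 130003049). It was at 107, 102 and 145 FPKM in the knockout group and at 180.4, 166 and 153 FPKM in the lacZ group. All knockout values lay below all control values, with knockout replicate 5 the nearest (log2 fold change -0.51, SE 0.20, unadjusted p = 0.0325, adjusted p = 0.147). Ppt1, which removes fatty acids from proteins, was the other hydrolase whose groups did not overlap. It was at 47.0, 39.3 and 51.4 FPKM against 60.4, 72.9 and 55.0 FPKM (log2 fold change -0.44, SE 0.19, unadjusted p = 0.0495, adjusted p = 0.178).

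The hydrolase highest in level was Asah1, the acid ceramidase, at 176, 70.6 and 184 FPKM in knockout libraries and 156, 212 and 315 FPKM in the lacZ group. It varied 4.47-fold between its lowest library, knockout replicate 4, and its highest, control replicate 9. Its log2 fold change of -0.73 (SE 0.40, adjusted p = 0.259) had the widest interval of the hydrolases, from -1.63 to 0.18, and stood at -0.28 without knockout replicate 4. The lowest in level was Sgsh, which removes sulphate from heparan sulphate, at 2.83, 1.28 and 2.58 FPKM against 1.75, 1.63 and 4.51 FPKM, with 21.6% of its exon bases shared with Card14 on the opposite strand. Strand use in counting is unknown here, so the level of Sgsh is uncertain. The same holds for Arsb with 39.9% and Hexa with 12.8% of exon bases shared in that way. Smaller shares on the opposite strand were found for Lamp1 (9.31%), Cln3 (7.65%), Npc1 (5.31%), Ppt1 (3.51%), Atp6v1h (1.3%) and Atp6v1e1 (0.78%). Glb1 shared 5.49% with Tmppe on the same strand.

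Enzymes of glycolipid breakdown spanned a wide range of levels with overlapping groups. Hexa, the alpha chain of beta-hexosaminidase, averaged 182 ± 19.4 FPKM in knockout and 171 ± 22.2 FPKM in control libraries. Glb1, the beta-galactosidase, averaged 48.3 ± 8.38 and 58.2 ± 12.8 FPKM, and Gla, alpha-galactosidase A, 27.2 ± 5.03 and 31.3 ± 6.87 FPKM. Neu1, the lysosomal sialidase, was the steadiest of the 37 genes within groups, at 91.5 ± 6.995 against 100.3 ± 4.54 FPKM. The 95% interval of its log2 difference ran from -0.51 to 0.25.

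Of the enzymes that trim glycoproteins, Man2b1, an alpha-mannosidase, was at 55.5 ± 12.7 against 75.2 ± 19.4 FPKM, and Fuca1, an alpha-fucosidase, at 109 ± 18.1 against 91.9 ± 36.1 FPKM. The spread of Fuca1 in controls came from control replicate 9, at 133 FPKM, while control replicates 6 and 8 were at 65.4 and 77.2 FPKM. Naglu, which like Sgsh acts on heparan sulphate, averaged 22.0 ± 0.970 FPKM in knockout libraries and 18.1 ± 5.01 FPKM in the lacZ group, and Arsb, which removes sulphate from dermatan sulphate, 11.3 ± 2.91 and 13.4 ± 1.64 FPKM. The glycogen enzyme Gaa was at 34.5 ± 6.71 against 37.2 ± 6.62 FPKM. Lipa, the acid lipase of cholesteryl esters, was at 29.8, 21.1 and 48.6 FPKM in the knockout group and at 37.0, 43.7 and 48.2 FPKM in the lacZ group, so knockout replicate 5 was its highest library and knockout replicate 4 its lowest. Tpp1, a peptidase, had the same lowest library: 145, 71.8 and 171 FPKM against 180.2, 111 and 149 FPKM, with control replicate 6 highest.

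The soluble helpers of lipid handling were abundant and overlapped between groups. Psap, the precursor of the saposins that present lipids to hydrolases, was at 348, 175 and 382 FPKM in the knockout group and at 209, 359.7 and 460.4 FPKM in the lacZ group. Its low libraries were knockout replicate 4 and control replicate 6, one in each group (log2 fold change -0.19, SE 0.37, adjusted p = 0.756). Npc2, which hands cholesterol to Npc1, was at 107, 126 and 117 FPKM against 81.5, 111 and 151 FPKM. Its knockout values lay inside the range of the controls (log2 fold change 0.07, SE 0.24).

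Among the 6 membrane proteins none passed and no groups were separate. Lamp1 and Lamp2, the abundant glycoproteins that line the lysosome, pointed in opposite directions. Lamp1 (chromosome 8, 13159161 to 13175338) was at 117, 135 and 61.5 FPKM in the knockout group and at 54.3, 55.7 and 80.2 FPKM in the lacZ group. Knockout replicates 1 and 4 stood above every control, while knockout replicate 5 lay between the controls (log2 fold change 0.66, SE 0.31, adjusted p = 0.198; exact two-sided permutation p = 0.2). Lamp2 was at 135, 76.7 and 155 FPKM against 132, 166 and 179 FPKM (log2 fold change -0.42, SE 0.28, adjusted p = 0.334; exact two-sided permutation p = 0.3). Here knockout replicate 4 was the lowest library, where it had been the highest for Lamp1. With the same adjustment the log2 fold change was 0.59 for Lamp1 and -0.03 for Lamp2.

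The other membrane proteins were lower in level. Scarb2, the carrier of glucocerebrosidase to the lysosome, was at 16.9, 8.54 and 15.2 FPKM against 10.6, 18.1 and 30.3 FPKM, with control replicate 9 far above the others. Npc1, which exports cholesterol, was the lowest in level of the 6, at 9.15, 8.55 and 14.2 FPKM against 15.0, 11.9 and 12.1 FPKM, and knockout replicate 5 lay among the controls. Cln3, the protein affected in juvenile Batten disease, averaged 38.9 ± 4.46 and 37.5 ± 1.59 FPKM. Mcoln1, a calcium channel of the lysosome, averaged 34.1 ± 4.36 and 35.9 ± 3.84 FPKM. The highest library exceeded the lowest 1.26-fold for Cln3 and 1.33-fold for Mcoln1.

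The V-ATPase genes had estimates on both sides of 0. Of 12, 5 were higher (Atp6v0d1 not with equal totals) and 7 lower, none passed, and the median log2 fold change was -0.09. Without knockout replicate 4, 9 were higher and 3 lower, with a median of 0.15. Atp6v1d, the rotor subunit D of the V1 sector (chromosome 12, 78840725 to 78861638), was at 103, 89.8 and 91.3 FPKM in the knockout group and at 65.5, 61.8 and 72.0 FPKM in the lacZ group. The groups were well separated, with the lowest knockout library above the highest control (log2 fold change 0.51, SE 0.17, 95% interval 0.12 to 0.89, adjusted p = 0.113). After the correction for length and GC content its log2 fold change was 0.79 (adjusted p = 0.0530), the lowest adjusted p of any of the 37 genes in any setting, and with equal totals it was 0.31 (adjusted p = 0.273). Atp6v1e1, the peripheral stalk subunit E (chromosome 6, 120794305 to 120822793), was at 237, 291 and 289 FPKM against 169, 195 and 224 FPKM, again with no overlap (log2 fold change 0.47, SE 0.20, adjusted p = 0.160). The same correction brought it to 0.19.

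The ATP-binding subunits had lower estimates. Atp6v1b2, the B subunit, was at 170.2, 71.6 and 176 FPKM in the knockout group and at 177, 202 and 278 FPKM in the lacZ group. The groups touched without overlapping, since knockout replicate 5 and control replicate 6 were nearly equal and knockout replicate 4 was far below (log2 fold change -0.74, SE 0.35, adjusted p = 0.208). Without knockout replicate 4 the log2 fold change was -0.32. Atp6v1a, the catalytic A subunit, was at 113, 68.5 and 127 FPKM against 95.5, 109 and 116 FPKM, with knockout replicate 5 above every control and knockout replicate 4 below every control. Its log2 fold change was -0.10, and it was 0.16 without knockout replicate 4 and 0.17 with the adjustment for length and GC content. The regulatory subunits also had knockout replicate 4 as their lowest library. Atp6v1c1 was at 74.9 FPKM there and between 111 and 132 FPKM elsewhere, with knockout replicate 5 and control replicate 6 nearly equal. Atp6v1h, the lowest V1 gene in level, was at 64.2, 50.6 and 79.7 FPKM against 74.9742, 61.7 and 65.5 FPKM.

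In the V0 sector, Atp6v0c, which forms the proton-carrying ring, had the highest level of all 37 genes. It was at 768, 858 and 740.5 FPKM in the knockout group and at 580.0, 533 and 694 FPKM in the lacZ group, with no overlap (log2 fold change 0.40, SE 0.21, adjusted p = 0.251). Reads from its processed pseudogenes Atp6v0c-ps1 and Atp6v0c-ps2, which have no row in the table, may have been counted elsewhere or dropped, so its level is uncertain. Atp6v0e, a small subunit, was at 412, 460.4 and 405 FPKM against 283, 296 and 395 FPKM, where control replicate 9 came within reach of the knockout values (log2 fold change 0.40, SE 0.21, adjusted p = 0.232). Corrected for length and GC content, the log2 fold change was -0.05 for Atp6v0c and 0.55 for Atp6v0e. Atp6v0d1, which couples rotor and ring, was at 158 ± 15.4 against 140.1 ± 10.2 FPKM with overlap. Atp6v0a1, the subunit through which protons pass, was the lowest in level and the most variable of the 37 within groups, at 53.0, 19.6 and 51.8 FPKM against 31.1, 49.2 and 70.4 FPKM.

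Both accessory proteins, which are needed for pump assembly and trafficking, had lower estimates. Atp6ap1 was at 147, 111 and 169 FPKM in the knockout group and at 176, 183 and 253 FPKM in the lacZ group, with no overlap (log2 fold change -0.52, SE 0.23, adjusted p = 0.184). Atp6ap2, also known as the prorenin receptor (X chromosome, 12587801 to 12617049), was at 86.1, 71.2 and 146 FPKM against 156, 163 and 131 FPKM. Knockout replicates 1 and 4 were far below the controls and knockout replicate 5 among them (log2 fold change -0.62, SE 0.27, unadjusted p = 0.0474, adjusted p = 0.174).

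**Figure D2:**
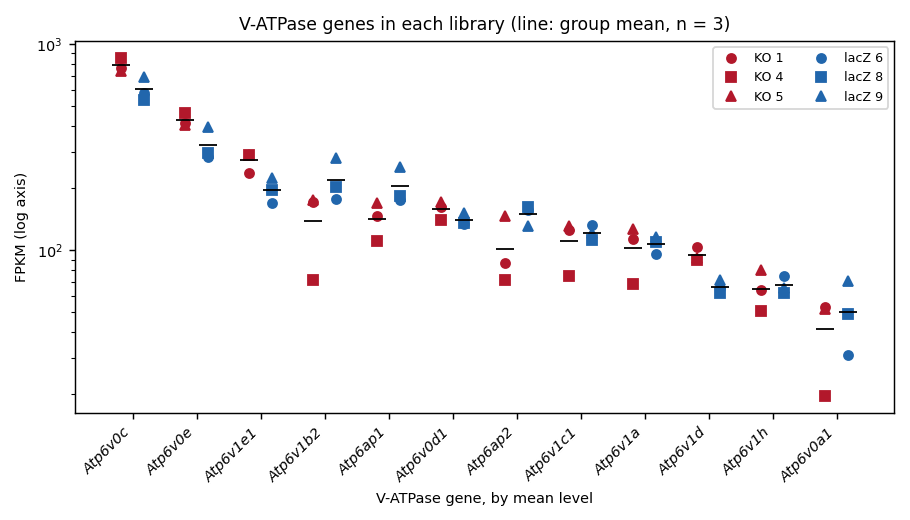
FPKM (vertical axis, log scale) of the 12 V-ATPase genes in each of the 6 libraries, ordered by mean level; red marks are knockout and blue marks control libraries, and lines are group means. Atp6v0c, Atp6v0e, Atp6v1e1 and Atp6v1d lie higher in knockout libraries, and knockout replicate 4 (red squares) is low for Atp6v1b2, Atp6v1a, Atp6v1c1 and Atp6v0a1.

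FPKM is scaled to length, so levels can be set side by side across genes, but only roughly. Deviations between libraries still went with transcript length, as given below, and the counting tool is unknown. By mean level, Atp6v0c (695 FPKM) led, followed by Atp6v0e (375 FPKM), Psap (322 FPKM) and Atp6v1e1 (234 FPKM). The libraries of Atp6v0e and Psap overlapped, so these neighbours cannot be ordered beyond their spread, while every library of Atp6v0c exceeded every library of the others. At the bottom were Npc1 (11.8 FPKM), Tfeb (3.01 FPKM) and Sgsh (2.43 FPKM), and Tfeb and Sgsh overlapped. The 37 genes stood above between 10.8% and 99.0% of tested genes in level. Together they made up 0.723%, 0.538% and 0.785% of the FPKM total of knockout replicates 1, 4 and 5 and 0.718%, 0.731% and 0.907% of that of control replicates 6, 8 and 9. Within groups the median SD on the log2(FPKM + 1) scale was 0.295 for the 37 genes and 0.292 for all tested genes.

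Libraries of the same group differed in these genes. Knockout replicate 4 was the lowest of the 6 libraries for 23 of the 37 genes (62.2%), and the lowest for 34.6% of all tested genes. Control replicate 9 was the highest for 13 (35.1%, against 14.4%). The median deviation of the 37 genes from their own means was 0.05, -0.40 and 0.18 in knockout replicates 1, 4 and 5 and -0.01, -0.03 and 0.13 in control replicates 6, 8 and 9 (log2 scale). By this median the lowest library, replicate 4, and the highest, replicate 5, were both knockout, whereas by share of the FPKM total control replicate 9 was the highest. Without knockout replicate 4 the median log2 fold change of the list was 0.05, with 22 genes higher and 15 lower, and Tfeb and Atp6v1d alone had an unadjusted p under 0.05. In bulk RNA, fewer cells with many lysosomes and less lysosomal RNA per cell cannot be told apart.

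Macrophage and monocyte markers also differed between libraries, and not all in the same way. Of 14 such genes 5 were tested, and their median deviation was -1.25 in knockout replicate 4, 0.86 in control replicate 9 and 0.59 in knockout replicate 5, with the other libraries between -0.23 and 0.09. Adgre1, which encodes the macrophage marker F4/80, was at 47.9, 22.1 and 81.7 FPKM in the knockout group and at 53.6, 53.2 and 98.4 FPKM in the lacZ group. Cd14, a co-receptor for bacterial lipopolysaccharide, had its highest level in knockout replicate 4, at 325, 471 and 323 FPKM against 60.5, 51.4 and 185 FPKM (adjusted p = 0.0513). Ccr2, a chemokine receptor of monocytes, was at 124, 65.0 and 82.4 FPKM against 191, 300 and 551 FPKM (adjusted p = 0.0520), so knockout replicate 5 lay below every control. The scavenger receptor gene Msr1 was at 8.94, 3.61 and 9.37 FPKM against 12.5, 19.3 and 30.7 FPKM, with the same separation of groups. The summed level of the 14 ran from 512 to 568 FPKM in knockout libraries and from 327 to 876 FPKM in the lacZ group. Csf1r, also tested, was at 4.04, 3.02 and 7.95 FPKM against 7.15, 2.24 and 8.03 FPKM, so its lowest library was control replicate 8. Among the genes not tested, Cd163, Mertk and Cx3cr1 were at or near 0, at most 0.215 FPKM in any library. Mrc1 was at 0.17, 0.14 and 0.43 FPKM against 0.74, 1.40 and 0.93 FPKM. C1qb and C1qc reached 2.32 and 2.60 FPKM, both in knockout replicate 5. The part of these markers in the lysosomal values was not tested.

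**Figure D3:**
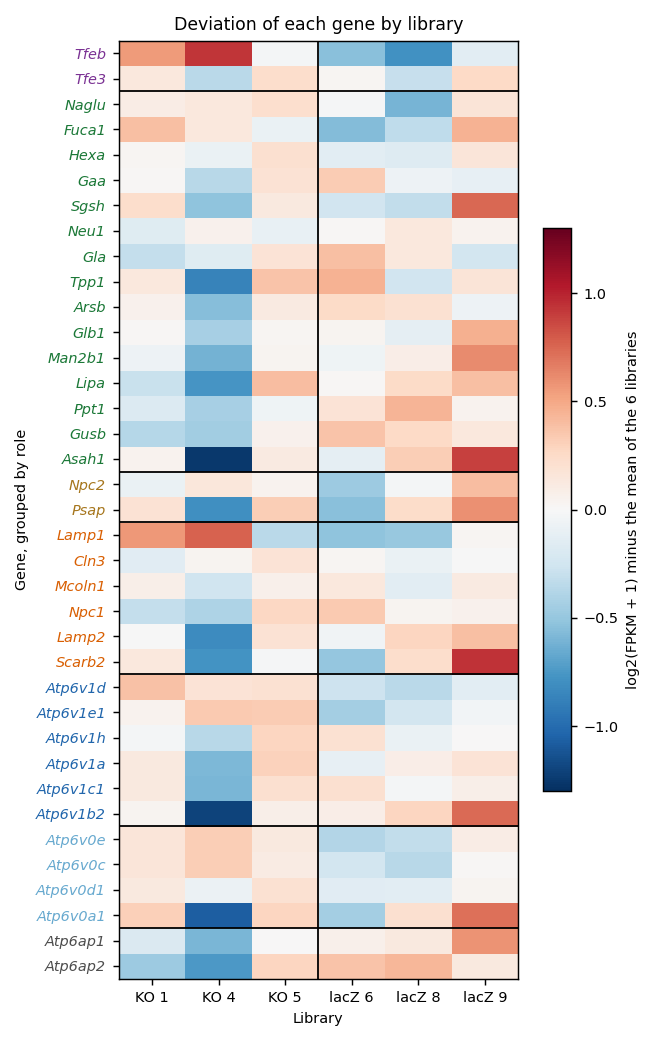
Deviation of log2(FPKM + 1) from each gene's mean over the 6 libraries (colour, red higher and blue lower), with the 37 genes in rows grouped by role and libraries in columns. The column of knockout replicate 4 is blue for most hydrolases, for Lamp2, Scarb2 and Psap and for much of the V-ATPase, but red for Tfeb and Lamp1.

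Transcript length also went with the fold changes. Over 9820 tested genes with an annotated transcript, the median log2 fold change was 0.28 in the quartile with the shortest transcripts and -0.31 in that with the longest. In knockout replicate 4 alone those quartiles deviated by 0.41 and -0.35. The 3 lysosomal genes in the shortest quartile, Atp6v0c, Atp6v0d1 and Atp6v1e1, had positive estimates, and the 2 in the longest, Npc1 and Scarb2, negative ones. Most of the list lay between these and did not follow length in order. The 19 in the second quartile had a median of -0.18, where all tested genes there had -0.03. The 13 in the third had a median of -0.12, where all tested genes there had -0.22. Across the 37 genes the Spearman correlation of length with log2 fold change was -0.30, and across all tested genes -0.42, a description over genes that share the same 6 libraries. With each library corrected for length and GC content, the median of the 37 genes was -0.08, and knockout replicate 4 was still the lowest library for 22 of them (59.5%, against 28.5% of all tested genes). The correction turned the estimates of Hexa, Atp6v0c and Atp6v0d1 to lower and that of Atp6v1a to higher.

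**Figure D4:**
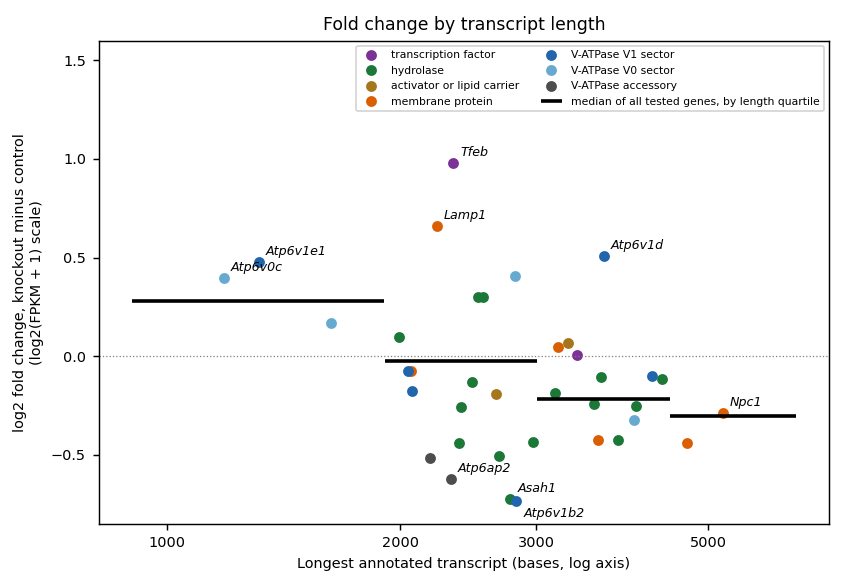
Log2 fold change of each of the 37 genes (vertical axis) against the length of its longest annotated transcript (horizontal axis, bases, log scale), coloured by role; black bars are medians of all tested genes in 4 length quartiles, drawn only within the plotted lengths. The medians go from 0.28 to -0.31 with length, and Tfeb, Lamp1 and Atp6v1d lie well above the median of their quartile.

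The promoter match did not divide the genes by direction. The 11 genes with TCACGTG in their window had a median log2 fold change of -0.08 (5 higher and 6 lower, from -0.26 for Glb1 to 0.66 for Lamp1). The 21 with a window but without these letters had a median of -0.24 (8 higher and 13 lower). None of either set passed, and the difference between the sets was not tested.

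Lysosomal genes beyond the 37 were compared from further lists, with 26, 24, 14, 18, 24 and 29 tested genes. In these lists 2 single genes passed, where 1.9% of all tested genes were called either way. Among 26 tested acid hydrolases and activators, 1 fell and none rose, and the list median was 0.15. It was Pla2g15, the lysosomal phospholipase A2, at 14.6, 12.0 and 15.4 FPKM in the knockout group and at 28.1, 30.7 and 37.1 FPKM in the lacZ group. The groups were widely separate (log2 fold change -1.13, SE 0.20, adjusted p = 0.0388), a call that held with the adjustment for length and GC content (0.0282). It ended when any 1 library was left out (adjusted p from 0.0515 to 0.172) and without the filter on low values (0.0831). Among 24 tested lysosomal membrane proteins, 1 rose and none fell, with a median of -0.23. It was the tetraspanin gene Cd63, at 6.55, 9.36 and 4.14 FPKM against 0.963, 1.93 and 1.33 FPKM (log2 fold change 1.64, SE 0.30, adjusted p = 0.0398). Its call ended without any one library other than knockout replicate 5 (adjusted p from 0.0642 to 0.118), and without the filter (0.133).

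None of 14 further V-ATPase subunits and assembly factors passed, with 8 estimates higher and 6 lower. The 2 with the lowest p were on opposite sides. Rnasek, which associates with the pump, was at 148, 222 and 152 FPKM in the knockout group and at 73.7, 94.1 and 96.5 FPKM in the lacZ group (log2 fold change 0.96, adjusted p = 0.0635). With its transcript of 611 bases, the adjustment for length and GC content brought it to 0.34 (adjusted p = 0.194). Tcirg1, the a3 form of the subunit that Atp6v0a1 also encodes, was at 51.1, 50.3 and 66.8 FPKM against 123, 92.2 and 89.7 FPKM (adjusted p = 0.0692), and the same adjustment gave a log2 fold change of -0.89 (adjusted p = 0.0821), against -0.85 without it. In both cases the groups were separate, but these genes were picked for their low p, which favours separate groups. Over the 14, groups were separate with the knockout higher for 3 and lower for 3. Over all tested genes the shares were 14.5% and 21.8%. None of 18 genes that tag hydrolases with mannose 6-phosphate or sort them passed either, with 6 higher and 12 lower and a median of -0.32. Gga3, a sorting adaptor, was at 7.45, 3.53 and 7.08 FPKM against 16.6, 11.3 and 13.1 FPKM (adjusted p = 0.0812). Gnptab, which adds the mannose 6-phosphate tag, was at 10.5, 5.28 and 10.6 FPKM against 17.1, 14.1 and 16.1 FPKM (adjusted p = 0.113). The controls of both lay above all knockout libraries, and knockout replicate 4 was again the lowest. These were also picked for their low p. Over the 18, groups were separate with the knockout higher for 1 and lower for 6.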

How the data were processed

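Total RNA of 6 libraries was sequenced on an Illumina platform, per the labels' protocols. The authors deposited 1 table of FPKM by gene symbol; FastQC, STAR 2.5.2b and mm10 are named in the submitters' processing notes, and the sources used here do not give the counting tool, annotation or use of strand. Since FPKM is no count, limma 3.58.1 (R 4.3.3, intensity trend, two-sided) was run on log2(FPKM + 1), with Benjamini-Hochberg adjustment over the 9830 genes that reached 1 FPKM in 3 or more libraries and a threshold of 0.05. Fold changes on this scale understate those of low genes. Depth was estimated from steps between low values, of which 62.8% to 69.9% came within 0.1 of whole fragments (20% by chance), too few to recover reads for a count test. Independence of the cultures within a group is not stated, so the p-values reflect only how these libraries vary, which may be technical. Symbols were matched to GENCODE M21 (GRCm38). The list, its roles and the other lists were chosen with earlier results of these data known. Every gene of the list was named; values per library were due for those at an unadjusted p under 0.05, for Tfeb and Tfe3 and for the highest and lowest of each role, and further genes were given after their values were seen. In the other lists, genes past the threshold or the 2 with the lowest p were named. The test was checked on simulated data with the spread of the real genes, where genes not low in level were changed by known folds. It called 2.99% of 1.5-fold, 26.9% of 2-fold and 80.3% of 4-fold changes, with 4 false calls. Most changes of 2-fold or less were thus missed there. Alternatives changed the pseudocount, filter, scaling, trend, length and GC adjustment (natural splines) or left out 1 library. Python 3.11.15, numpy 2.4.6, pandas 2.3.3, scipy 1.17.1 and matplotlib 3.10.9 were used.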

Additional observations from a re-analysis of the deposited data

How the results depend on the processing

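The count of 0 called among the 37 lysosomal genes held in all 14 other settings (8 ways of processing and 6 left-out libraries), with a lowest adjusted p of 0.0530. With 3 against 3 libraries, 13 of the 37 intervals reached past 2-fold on the log2(FPKM + 1) scale. The median log2 fold change of the list ran from -0.33 with equal totals to 0.05 without knockout replicate 4; equal totals moved the median of all genes to -0.24. Over all genes, 22 rose and 1 fell without the filter, 72 and 25 at a mean FPKM of at least 5, 71 rose with equal totals and 32 fell with a pseudocount of 0.1. Leaving out a library gave 19 to 159 rises and 1 to 38 falls. In the other lysosomal lists 0 rose and 0 fell without the filter, and 2 fell without the trend. At a mean of at least 5, 0 rose, but Cd63, with a mean of 4.05 FPKM, was not tested in that setting. Leaving out a library gave 0 to 1 each way. None of the estimates that changed sign was called. With equal totals they were Hexa (-0.11), Npc2 (-0.14), Cln3 (-0.16), Tfe3 (-0.18) and Atp6v0d1 (-0.0367); with quantile normalization Hexa (-0.0615) and Npc2 (-0.0562); after the length and GC correction Hexa (-0.10), Atp6v1a (0.17), Atp6v0c (-0.0517), Atp6v0d1 (-0.10) and Mitf (0.22). With a library left out, the ranges of those that changed sign were Gaa (-0.23 to 0.0480), Tpp1 (-0.49 to 0.13), Sgsh (-0.30 to 0.23), Psap (-0.51 to 0.16), Npc2 (-0.15 to 0.29), Cln3 (-0.0348 to 0.13), Mcoln1 (-0.17 to 0.0305), Tfe3 (-0.14 to 0.18), Atp6v1a (-0.27 to 0.16), Atp6v1c1 (-0.32 to 0.0797), Atp6v1h (-0.23 to 0.0889), Atp6v0a1 (-0.62 to 0.13) and Mitf (-0.24 to 0.0733). The causes were not tested.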

Other observations

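Genes upstream of TFEB and genes of autophagy, the route that delivers cargo to lysosomes, were also looked at. Of 24 tested mTORC1 and TFEB regulators none passed, with 9 estimates higher and 15 lower and a median log2 fold change of -0.09. The lowest p belonged to Fnip2, a partner of folliculin, at 0.988, 0.985 and 1.89 FPKM in knockout libraries and 4.80, 3.26 and 3.40 FPKM in controls (adjusted p = 0.0585). Tsc1, a brake on mTORC1, was at 2.34, 1.25 and 2.60 FPKM against 5.29, 4.87 and 4.43 FPKM (adjusted p = 0.0713). Both had separate groups, but were picked for their low p. Over the 24, groups were separate with the knockout higher for 3 and lower for 7, against 14.5% and 21.8% of all tested genes. Of 29 tested autophagy genes none passed, with 11 higher and 18 lower and a median of -0.16. Sqstm1, the cargo receptor p62, was at 127, 184 and 232 FPKM against 71.7, 91.6 and 94.97 FPKM (adjusted p = 0.0675). Atg12, part of the conjugation machinery, was at 20.3, 19.4 and 25.5 FPKM against 63.1, 73.8 and 32.1 FPKM (adjusted p = 0.0675), and passed without control replicate 9 (adjusted p = 0.0227).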
